A study of Mus musculus with 18 samples.

Results

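The genes described here encode the proteins of the cytosolic ribosome, the particle that translates messenger RNA. Of the 47729 reference genes listed in the gene tables of mouse spleen cells, 92 carried a ribosomal protein name of the large subunit (Rpl) or small subunit (Rps), with Rplp0, Rplp1, Rplp2 and Rpsa counted in and pseudogenes named -ps and the Rps6k kinases left out. 87 of the 92 averaged at least 1 FPKM (a fragment count scaled to transcript length and to the size of the library) over the 18 libraries and are the members, 51 named for the large subunit and 36 for the small one. 77 of the 87 are standard ribosomal proteins, 46 of the large and 31 of the small subunit. The other 10 are the paralogs Rpl7l1, Rpl22l1, Rpl36al, Rps27l and Rps27rt, the annotated pseudogenes Rpl6l, Rpl37rt, Rps3a2 and Rps3a3, and Rps19bp1, which the name rule takes although it encodes a nucleolar regulator of Sirt1 and not a ribosomal protein.

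The series measured bulk RNA from mouse spleens after immunisation with LPPC, a liposome coated with polyethylene glycol and polyethylenimine that adsorbs proteins to its surface. LMA (6 libraries, labelled LPPC/mp/CD28) came from mice first immunised with LPPC carrying dendritic cell membrane protein (mp) and then given that complex with an antibody to the costimulatory receptor CD28. LMS (6 libraries, labelled LPPC/mp/CD152) had an antibody to CD152, the inhibitory receptor CTLA4, in its place, LM (3 libraries, labelled LPPC/mp) had the immunisation alone, and N (3 libraries) were naïve mice. The labels describe every mouse as a female C57BL/6J of 4 to 6 weeks, and give no genotype change. LMA and LMS mice had 1 or 2 weekly doses with antibody after the immunisation, which the labels do not tell apart, and no group had the further doses without an antibody, so LMA and LMS differ from LM in antibody, dose number and week together. No source says that libraries of a group come from separate animals, and the p-values then measure only the spread between these libraries.

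A eukaryotic ribosome carries close to equal numbers of almost every ribosomal protein, so their genes are known for high expression in step with one another. Many of their mRNAs begin with a pyrimidine tract, the 5′ TOP motif, through which mTOR signalling and Larp1 set their translation, and Myc drives their transcription together with that of ribosome assembly factors. In spleen, resting lymphocytes hold few ribosomes and make many more when they are activated, and a few ribosomal protein genes have paralogs whose use differs between cell types. The genes have also given rise to very many processed pseudogenes, copies of the spliced mRNA inserted elsewhere in the genome, which can be nearly identical in sequence to the gene.

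By sequence, 886 annotated pseudogenes were at least 90% identical over at least 50% of their length to the transcript of 1 of 75 standard members, and 2 of the 77 had none. For Rpl26, a large subunit protein, the copy Gm15772 (chr5:3236431-3236868, + strand, GRCm38) differed from the gene's transcript at 2 of 438 aligned bases. For Rpl30, also of the large subunit, the copy Gm12191 (chr11:49678710-49679057, − strand) differed at 1 of 348. For Rplp0, the base of the stalk that recruits translation factors, the copy Gm8730 (chr8:102864779-102865853, − strand) differed at 12 of 954. A coding stretch of 60 bases, in which 1 base differs, is shown for the first pair of these. It lies in exon 3 of Rpl26 (chr11:68903260-68903319, + strand) and at chr5:3236680-3236739 in the copy, from the GENCODE transcripts, with the base that differs in capitals.
Rpl26: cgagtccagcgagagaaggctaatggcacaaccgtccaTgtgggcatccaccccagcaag
Gm15772: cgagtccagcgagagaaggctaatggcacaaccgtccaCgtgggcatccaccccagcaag
The same stretch is given for the Rpl30 pair, from exon 2 of the gene (chr15:34442677-34442736, − strand) and from chr11:49678933-49678992 (− strand).
Rpl30: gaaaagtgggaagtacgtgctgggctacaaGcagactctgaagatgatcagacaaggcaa
Gm12191: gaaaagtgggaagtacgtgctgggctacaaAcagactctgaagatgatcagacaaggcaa

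Several libraries stood apart before any group was compared. N 1, N 2, LMS 2 and LMS 5 listed the Y-linked Eif2s3y at 0 FPKM and Xist at 48.1 to 59.9 FPKM, whereas the other 14 listed Eif2s3y at 31.0 to 43.0 FPKM and Xist at 0.286 to 7.20 FPKM, against the label female. Those 4 libraries also had the highest summed FPKM of 8 B cell markers (1365 to 1780, against 28.8 to 326 in the other 14) and of 12 T cell markers (532 to 905, against 8.96 to 159), so lymphocyte markers, which define most spleen cells, were low in most libraries, though none of them was at 0 in all. The sum of 10 macrophage and monocyte markers was 3274 to 3618 FPKM in LMS 1, LMS 3, LMS 4, LMS 6 and N 3, 2056 to 2229 FPKM in LMA and LM, and 480 to 577 FPKM in the 4 libraries without Eif2s3y, but this is mostly Lyz2. Mrc1, C1qa and Ccr2, of the same list, ran the other way, at 17.4 to 18.8, 61.3 to 68.9 and 12.9 to 15.3 FPKM in those 4 libraries, against at most 4.09, 20.0 and 3.65 FPKM in the other 14. The sum of 11 neutrophil markers was 2132 to 2898 FPKM in LMA, 1520.2 to 1794 FPKM in LM and at most 536 FPKM in every LMS and N library, and rests mainly on S100a8, S100a9 and Ngp. Cxcr2 and Csf3r, the receptors on that list, were highest in the 4 libraries without Eif2s3y, at 7.77 to 8.90 and 23.2 to 27.6 FPKM, against at most 3.75 and 8.46 FPKM in the other 14. Hemoglobin genes took 16.9% to 18.4% of the FPKM of LMS 2, LMS 5 and N 2 and at most 1.85% of any other library. In bulk RNA, fewer cells of a type and less RNA per cell cannot be told apart. N 1 further listed Klra8, H2-Ea-ps and Ifi202b, whose expression differs between inbred strains, at 10.4, 0.0671 and 3.1e-05 FPKM, against at most 0.0651, at least 26.0 and at least 5.39 FPKM in the other 17 libraries, all labelled C57BL/6J. The part of sex-linked, cell type and strain-linked differences in the results below was not tested. For comparisons with LMS or N, counts of members are also given without some of these libraries.

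In N 1, 8 members were more than 2-fold above their highest value in any other library. The share of all genes that were so was not computed. Rpl26 had 825 FPKM in N 1, against 17.9 to 64.5 FPKM in the other 17. Rps2, which lines the mRNA entry channel of the small subunit, had 855 FPKM in N 1, against 44.9 to 86.5 FPKM, and Rps18 had 983 FPKM, against 58.4 to 118 FPKM. Rpl21 had 101 FPKM in N 1, against 3.20 to 6.38 FPKM, Rpl29 had 303 FPKM, against 7.62 to 16.0 FPKM, and Rpl35a had 321 FPKM, against 15.3 to 30.7 FPKM. Rpl30 had 393 FPKM, against 54.2 to 70.0 FPKM, and Rplp0 had 1103 FPKM, against 396 to 528 FPKM. All 8 are standard members, and in the other 17 libraries 7 of them stood well under the median member. The summed pseudogene copies of each of these genes but Rpl21 were lower in N 1 than in any other library. Those of Rpl21 had 1028.5 FPKM in N 1, inside the 865 to 1106 FPKM of the others. Those of Rpl35a fell less far than the rest, to 425 FPKM against 564 to 773 FPKM. Gm15772 had 36.9 FPKM in N 1, against 708.8 to 1112 FPKM in the other libraries. Gm8730 had 8.73 FPKM in N 1, against 437.5 to 552 FPKM, and Gm12191 had 6.27 FPKM, against 400.5 to 492 FPKM.

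Summing each gene with its copies gave values much nearer those of the other libraries. Rpl26 with its copies had 869 FPKM in N 1, against 737 to 1139 FPKM in the other 17 libraries, and Rps2 with its copies had 974 FPKM, against 748 to 1248 FPKM. Rplp0 with its copies had 1114 FPKM, against 913 to 1181 FPKM, and Rpl35a was likewise inside the range, at 745 FPKM against 584 to 802 FPKM. Rps18 and Rpl21 stayed above it, at 993 FPKM against 350.2 to 506 FPKM and at 1129 FPKM against 869 to 1113 FPKM. Rpl30 and Rpl29 lay below it, at 406 FPKM against 569 to 693 FPKM and at 365 FPKM against 405 to 564 FPKM. Of the 77 standard members summed with their copies, 0 were over 2-fold above the highest other library or under 0.5 times the lowest. The copies held 12.5% of the FPKM of standard members and copies together in N 1 and 22.8% to 24.0% in the other 17 libraries. Of the 95 copies above 10 FPKM in every other library, 22 were under 0.5 times their lowest other value in N 1 and 0 were over 2-fold above their highest. These shares over all genes were not computed either. 2 members went the other way from the 8: Rps3a2, an annotated pseudogene and retrocopy of Rps3a1, had 7.51 FPKM in N 1 against 205 to 284 FPKM, and Rps28, a protein at the mRNA exit site, had 112 FPKM against 272 to 381 FPKM. For Rps28 the direction turned on the deposited coverage, at 110.1 in N 1, against 71.4 to 99.6 in the other libraries on the same scale. Whether the reads or the assignment differed in N 1 was not tested.

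**Figure D1:**
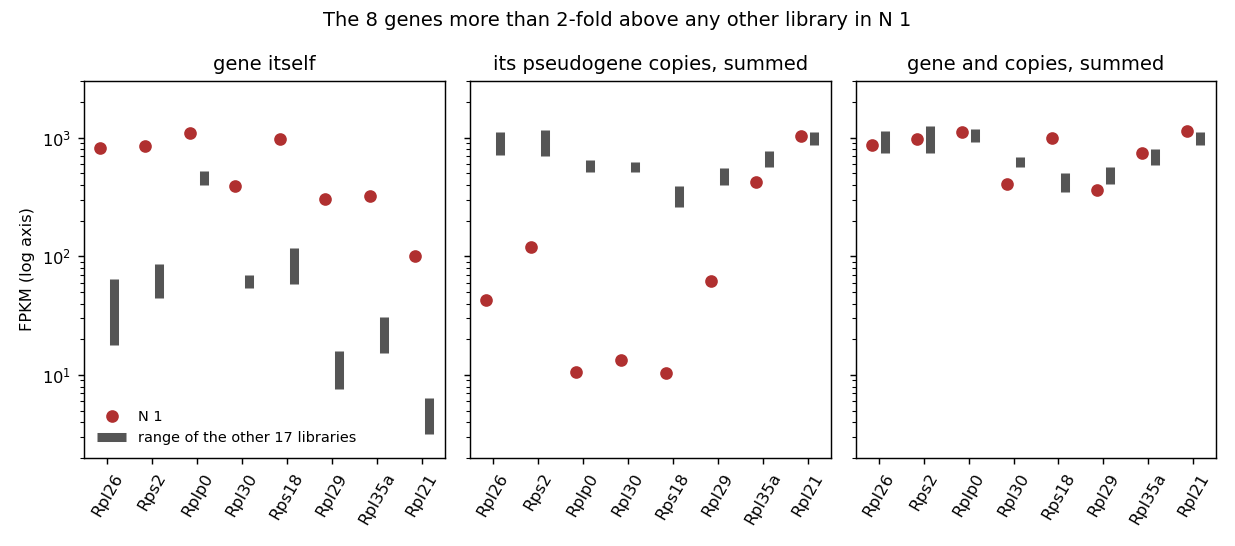
FPKM (log axis) of the 8 members that were more than 2-fold above every other library in N 1, for the gene itself, its pseudogene copies summed, and both together; red points are N 1 and grey bars span the other 17 libraries. Rpl26 alone is at 825 FPKM in N 1 and at most 64.5 FPKM elsewhere, its copies are at 43.2 FPKM in N 1 and at least 713 FPKM elsewhere, and the sum of both in N 1 lies within the bar.

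The members together took a large share of all expression. Their summed FPKM ranged over 35519 to 36236 in LMA with a median of 36033 (mean 35939 ± 290 SD, n = 6), over 31938 to 41941 in LMS with a median of 39809 (37796 ± 4377, n = 6), was 36594, 37983 and 37328 in LM (37302 ± 695, n = 3), and 48111, 34952 and 37111 in N (40058 ± 7057, n = 3). LMA was the most uniform group and lay below all 3 LM libraries. LMS split into LMS 2 and LMS 5, at 31938 and 32597, and the other 4 libraries, at 39171 to 41941, and these sets lay on either side of every LMA and LM library. As a share of all reference FPKM the members made 9.84% to 10.1% in LMA, 7.56% to 10.8% in LMS, 9.85% to 10.2% in LM and 7.79% to 12.9% in N. With hemoglobin genes left out of the total, the share was 9.10% and 9.22% in LMS 2 and LMS 5 and 10.6% to 10.8% in the other 4 LMS libraries, so the order within LMS was kept.

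**Figure D2:**
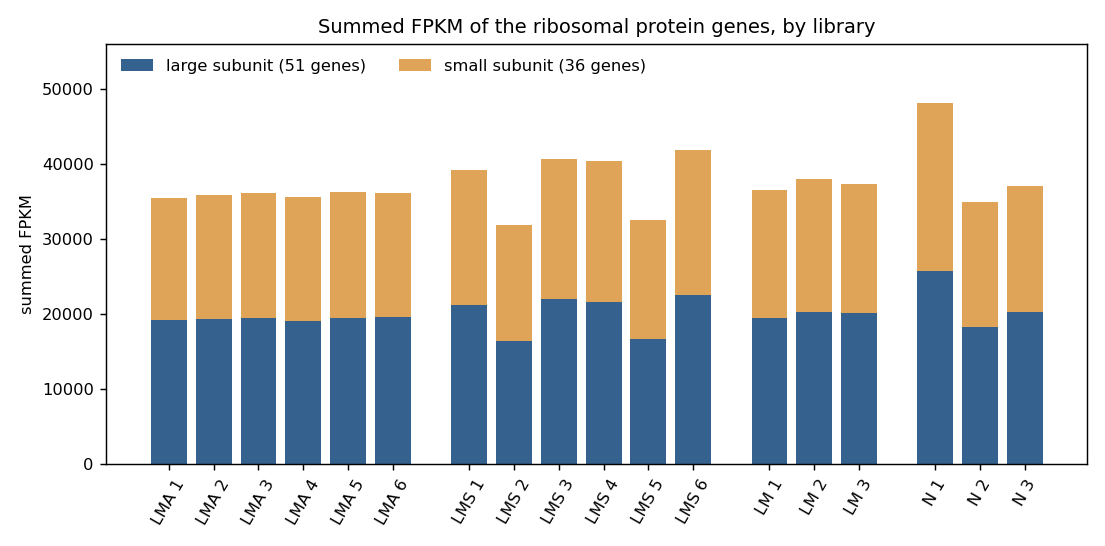
Summed FPKM of the members in each of the 18 libraries, with the 51 large subunit genes in blue and the 36 small subunit genes stacked in orange. The 6 LMA bars sit between 35519 and 36236, LMS 2 and LMS 5 at 31938 and 32597 are the lowest of all, and N 1 at 48111 is the highest.

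The 2 subunits moved together across libraries but not to the same extent. The large subunit summed to 19383 ± 198 FPKM in LMA (SD, n = 6), 20117 ± 2767 in LMS (n = 6), 19980 ± 428 in LM (n = 3) and 21411 ± 3842 in N (n = 3). The small subunit summed to 16556 ± 151 FPKM in LMA, 17679 ± 1619 in LMS, 17322 ± 360 in LM and 18647 ± 3257 in N. The large to small ratio was 1.16 to 1.19 in LMA, 1.06 to 1.18 in LMS, 1.14 to 1.18 in LM and 1.10 to 1.20 in N, and the groups overlapped. LMS 2 and LMS 5 had the lowest 2 ratios, both 1.06, followed by N 2 at 1.10, which are the 3 libraries with the high hemoglobin share.

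Levels differed widely between members, though FPKM is a level per transcript length. The median member averaged 351 FPKM in the large and 428 FPKM in the small subunit, against 8.75 FPKM for the median of the 11436 protein-coding genes tested. The highest in the large subunit were Rpl4 (1021 FPKM over 18 libraries), Rpl19 (854 FPKM) and Rpl8 (850.4 FPKM), all core proteins of the large subunit's RNA scaffold. The highest in the small subunit were Rps15 (949.9 FPKM), Rps3a1 (947 FPKM) and Rps6 (934 FPKM), the last the substrate of S6 kinase downstream of mTOR. The lowest members were Rps19bp1 at 9.98 FPKM and Rpl21 at 10.1 FPKM. Just outside the limit of 1 FPKM lay Rps4l at 0.648 FPKM, and further below were Rps12l1, Rpl3l, Rpl39l and Rpl10l at 0.0727, 0.0583, 0.0321 and 0 FPKM. Rpl3l is known from muscle and Rpl10l and Rpl39l from testis.

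Most members varied little. The range of log2(FPKM + 0.5) over the 18 libraries had a median of 0.68 over the 87 members and of 1.31 over the genes tested, and without N 1 the medians were 0.50 and 1.16. Rpl28, a large subunit protein, had the smallest range (0.21), with 345 to 360 FPKM in LMA, 321 to 356 FPKM in LMS, 362, 370 and 371 FPKM in LM and 361, 359 and 326 FPKM in N. Rps10 and Rpl14 followed with ranges of 0.37 and 0.38. The largest ranges were those of Rpl26 (5.49), Rpl29 (5.22) and Rps3a2 (5.15), and N 1 alone made all 3, since without it they were 1.82, 1.02 and 0.47. Without N 1, 13 members had a range of 1 or more, led by Rps27l (2.04), Rps13 (2.01) and Rpl3 (1.95). For Rpl3 and Rps13 the deposited coverage did not show this range. Rpl3, the large subunit protein at the peptidyl transferase centre, had 231, 227 and 536 FPKM in LM 1, LM 2 and LM 3, while its coverage on the same scale was 223, 220.0 and 224. Rps13 had 99.0 FPKM in LMS 6 and 101 FPKM in N 2, against at least 343 FPKM in the other libraries, while its coverage was 91.5 and 96.4 in these 2 libraries and 78.1 to 148 in the others. For 11 members the ratio of FPKM to coverage differed more than 1.5-fold among the 17 libraries without N 1, and the cause was not tested.

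**Figure D3:**
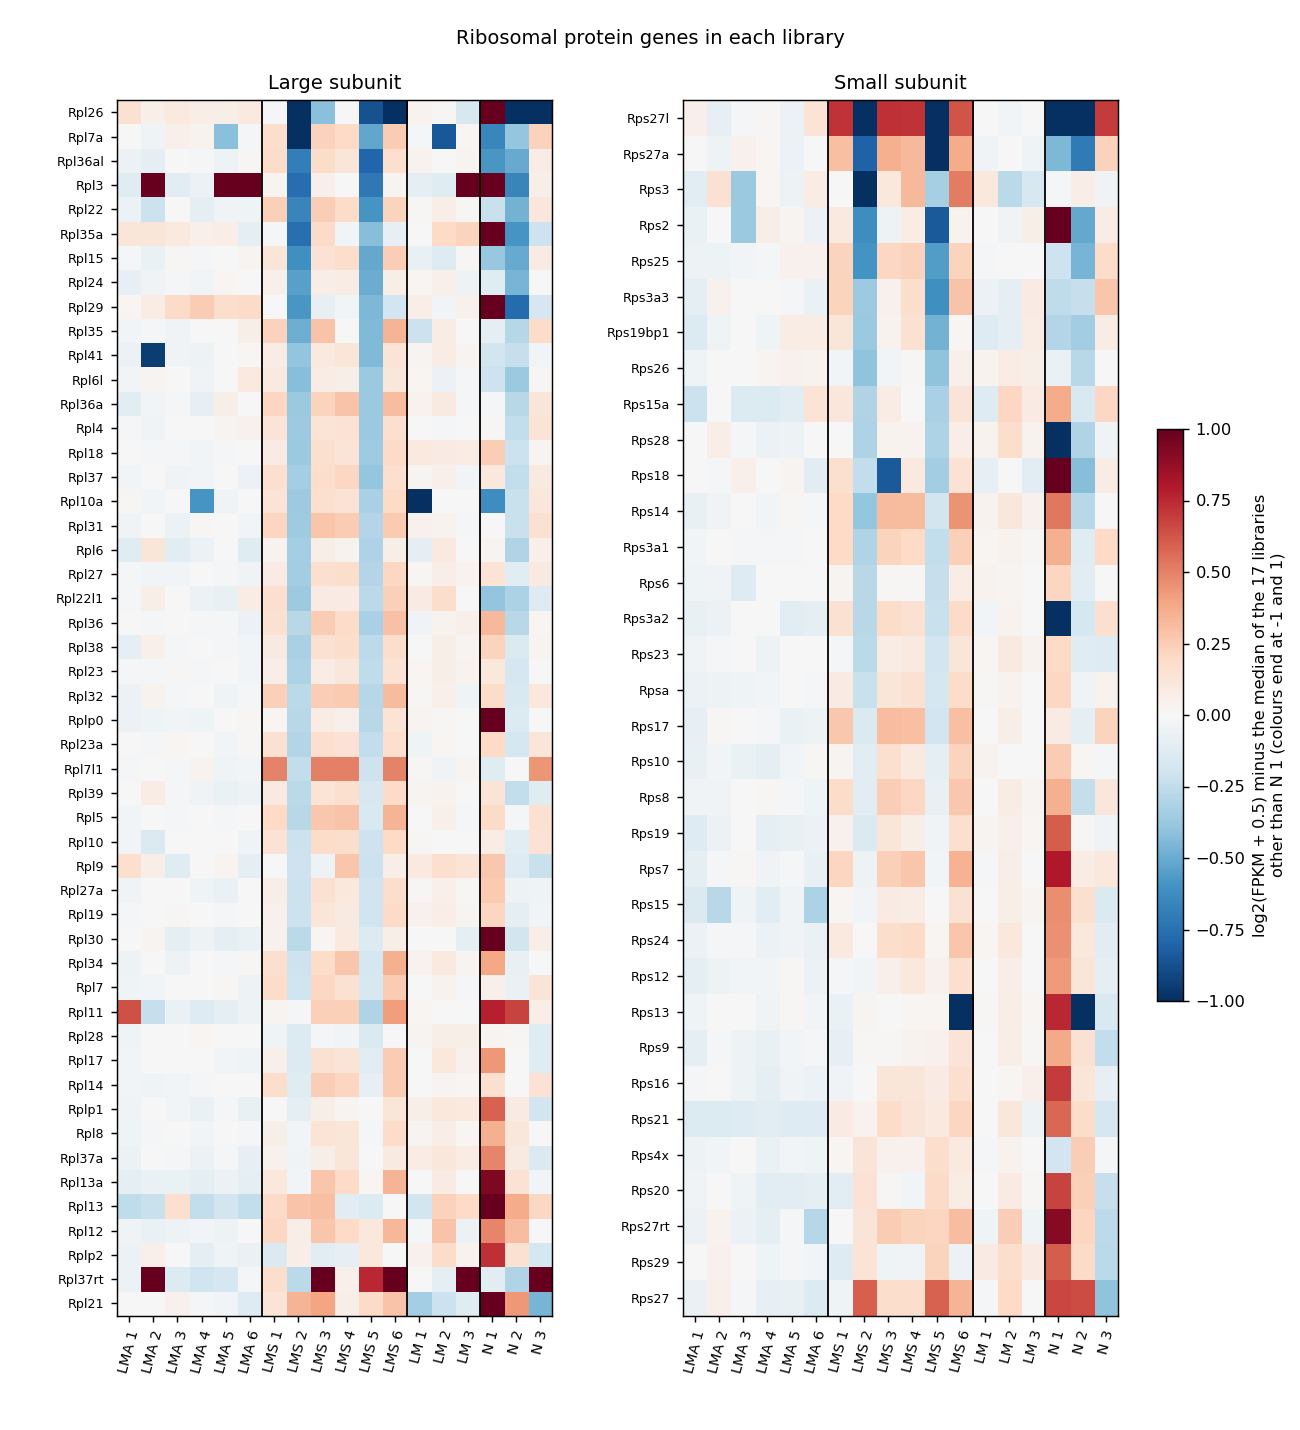
84 of the 87 members (rows, large subunit left and small subunit right, sorted by their values in LMS 2 and LMS 5) in each library (columns), as log2(FPKM + 0.5) minus the median of the 17 libraries other than N 1; red is higher, blue lower, and colours end at -1 and 1. LMS 2 and LMS 5 are blue for most genes of both subunits and red for Rps27 at the foot of the small subunit, N 1 has its own pattern, and the LMA and LM columns are the palest.

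The first question the design poses is whether CD28 and CTLA4 antibodies on the complex led to different levels. In the limma fit over all 18 libraries, 0 of the 83 members tested passed an adjusted p of 0.05 between LMA and LMS, with 5 at an unadjusted p under 0.05, while 30.7% of all 11436 genes tested passed. All 5 were lower in LMA, Rpl12, Rps21, Rps15 and Rps27 among them. The median difference, LMA minus LMS, was −0.05 on the log2 scale over the members and −0.12 over all genes. The member median turned to 0.05 with median of ratios scaling, with 59 of 83 positive and 2 called, both higher in LMA, against −0.03 over all genes. Rps21, a small subunit protein, came near the threshold, with 294 to 302 FPKM in LMA (median 297) and 332.5 to 376 FPKM in LMS (median 350.3), which do not overlap. Its log2 difference was −0.25 ± 0.09 (SE, limma adjusted p = 0.0522). LMS itself was split: 66 of the 83 members (79.5%) were lower in both LMS 2 and LMS 5 than in any of the other 4 LMS libraries, as were 45.3% of all genes. 6 members (7.23%, against 40.5% of all genes) were higher in both: Rplp2, Rps4x, Rps13, Rps20, Rps27 and Rps29. For Rps13 the margin was small, at 389 and 387 FPKM in LMS 2 and LMS 5, against 99.0 to 385 FPKM.

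Without N 1, N 2, LMS 2 and LMS 5, a choice made after seeing the data, 61 members were lower and 2 higher in LMA than in the remaining 4 LMS libraries, against 44.0% and 28.0% of all genes lower and higher. The median member difference was −0.18, and −0.09 over all genes. Without N 3, LMS 1, LMS 3, LMS 4 and LMS 6, the direction turned: 38 members were higher and 4 lower in LMA than in LMS 2 and LMS 5, against 36.6% and 42.2% of all genes, with a median of 0.21 against −0.08. By subunit, 27 of 49 large subunit members and 11 of 34 small subunit members were higher in that set. The 2 kinds of LMS library thus gave opposite signs, and their lymphocyte, macrophage and hemoglobin levels differed as given above. Leaving out single libraries gave 2 members called without LMS 2 and 1 without LMS 5, beside 3332 and 3307 of all 11436 genes. It gave 0 without any other LMA or LMS library, beside 3061 to 3458 of all genes.

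Against LM, the immunisation without antibody, LMA had 0 members called in limma and 0 at an unadjusted p under 0.05, and 0% of all genes were called. That fit takes its spread from all 4 groups. In the fit of LMA and LM alone, 31 members had an unadjusted p under 0.05 and 0 were called, with 48 genes called in all, and without N 1, N 2, LMS 2 and LMS 5 these were 21, 0 and 66. The share of all genes at that unadjusted p was not computed, here or for the other comparisons. In 27 of 83 members (32.5%) all 6 LMA libraries were below all 3 LM libraries, against 3.82% of all genes, and in 1, Rpl26, all were above, against 2.43%. Rplp1, a stalk protein, is an example, with 759 to 800.0 FPKM in LMA (median 782) and 835, 859.8 and 854 FPKM in LM. Its log2 difference was −0.12 ± 0.12 (SE, limma adjusted p = 1.0). The median member difference was −0.05, against −0.00 over all genes. Members wholly below LM were 20 with median of ratios scaling, 28 on coverage and 33 of 77 summed with copies. Those wholly above were 2, 1 and 0, and no share of all genes was computed for these scalings. Once FPKM was rescaled without hemoglobin genes 8 members were wholly below LM and 4 wholly above, against 2.48% and 5.09% of all genes. Hemoglobin genes were 0.379% to 0.732% of FPKM in LMA and 1.27% to 1.85% in LM. The summed FPKM of all reference genes differed as well, at 354281 to 368118 in LMA and 367387 to 379199 in LM. The part of either in the change on rescaling was not tested.

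LMS against LM gave 0 members called in limma and 0 at an unadjusted p under 0.05, while 21.3% of all genes were called, and the median difference was 0.01 over the members and 0.10 over all genes. Without N 1, N 2, LMS 2 and LMS 5, 44 members were higher and 3 lower in LMS than in LM, against 40.5% and 27.6% of all genes. Without N 3, LMS 1, LMS 3, LMS 4 and LMS 6, 1 was higher and 41 were lower in LMS, against 40.5% and 35.4% of all genes. The first set had a member median of 0.12 and the second of −0.24, so the sign of the LMS difference depended on which of its libraries were kept.

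**Figure D4:**
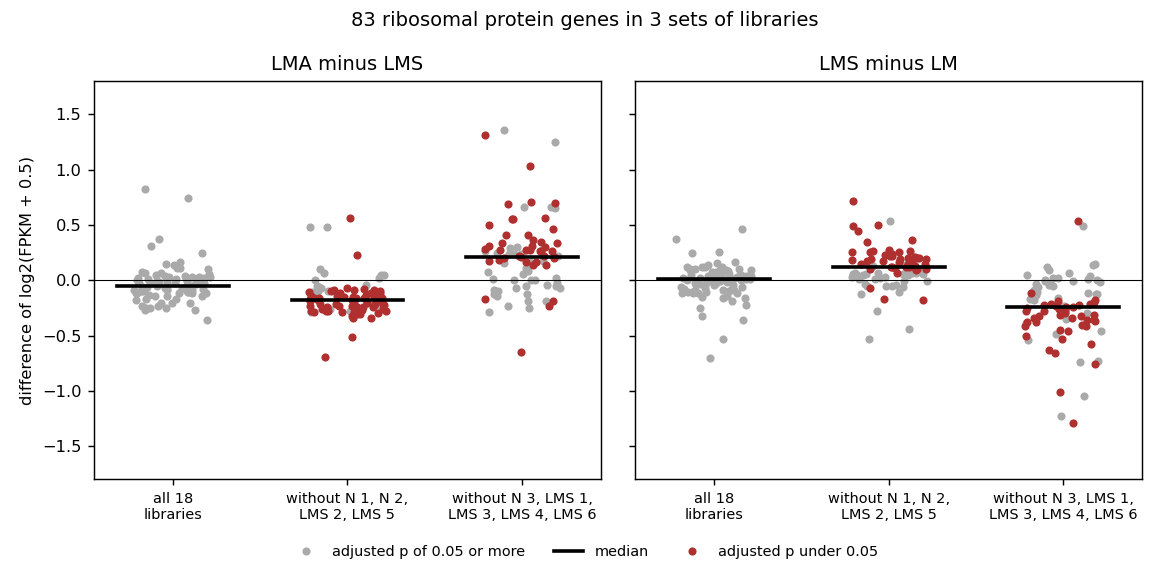
Difference of log2(FPKM + 0.5) for the 83 members tested (points; red where the limma adjusted p is under 0.05, black lines are medians), LMA minus LMS on the left and LMS minus LM on the right, with all 18 libraries and with either set of libraries left out. The LMA minus LMS median goes to −0.18 without LMS 2, LMS 5, N 1 and N 2 and to 0.21 when only LMS 2 and LMS 5 remain in LMS.

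Against naïve spleen, LMA was the only group with members called. In limma 9 members were lower and 1 higher in LMA than in N, 10 of 83 beside 35.4% of all genes, and the median difference was −0.10 over the members and −0.13 over all genes. The member median was 0.02 without N 1 and likewise 0.02 with median of ratios scaling. That scaling left 3 members called, 1 lower and 2 higher, beside 3922 of all 11436 genes. Rpl13, a large subunit protein, led with 288 to 386 FPKM in LMA (median 292) and 849.7, 443 and 397 FPKM in N, which do not overlap. Its log2 difference was −0.79 ± 0.20 (SE, adjusted p = 0.00611). Rpl13a, which in human monocytes also silences inflammatory mRNAs, had 563 to 579 FPKM in LMA (median 571) and 1149, 668 and 591 FPKM in N, a difference of −0.43 ± 0.15 (adjusted p = 0.0404). N 1 was the highest library for both. Rpl12, Rps21, Rps15 and Rps7 were also lower in LMA, with log2 differences of −0.30 to −0.37. Rps28 was the 1 called higher, with 324 to 355 FPKM in LMA (median 335) and 112, 274 and 330 FPKM in N, a difference of 0.63 ± 0.23 (adjusted p = 0.0437).

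These calls changed with single libraries. Without N 1, 3 members were called (23.2% of all genes), of which only Rpl13, at −0.45, was among the 10, and the other 2 were Rpl26 and Rpl29, higher in LMA by 1.28 and 0.62. Summed with its copies, Rpl26 had 954 to 977 FPKM in LMA, between N 2 and N 3 at 817 and 1027 FPKM. Rpl29 with its copies had 515 to 544 FPKM, likewise between N 2 and N 3 at 441 and 553 FPKM. Without N 3, 31 members were called (66.0% of all genes), the 10 among them. Leaving out any 1 LMA library gave 3 or 4 called, beside 3476 to 3579 of all 11436 genes. On coverage in place of FPKM, Rps28 differed by −0.0080 and was no longer called. LMS against N gave 0 members called in limma, 6 at an unadjusted p under 0.05 and 0% of all genes, and LM against N gave 0 members, 6 at an unadjusted p under 0.05 and 25.0% of all genes. The 6 of LMS and N were Rpl13, Rps2, Rps18, Rpl30, Rpl22l1 and Rps28, and 3 of them are among the 8 that jumped in N 1. Without N 3, 21 members were called between LM and N (58.2% of all genes) and 17 between LMS and N (33.5%). Without N 1, N 2, LMS 2 and LMS 5, 15 members were higher and 0 lower in LMS than in N, against 5.03% and 0.245% of all genes. That fit has N 3 as its only naïve library and takes it to vary like the other groups.

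Among the stalk proteins, Rplp0 was at 461 to 485 FPKM in LMA, 396 to 528 FPKM in LMS, 491, 485 and 481 FPKM in LM, and 1103, 437 and 480 FPKM in N. Rplp2 was at 181 to 200.3 FPKM in LMA, 175 to 207 FPKM in LMS, 199, 219.9 and 198 FPKM in LM, and 320.3, 215 and 171 FPKM in N. Rpsa, whose human gene is mutated in families born without a spleen, was at 678 to 706 FPKM in LMA, 605 to 803 FPKM in LMS, 712, 723 and 706 FPKM in LM, and 817, 689 and 724 FPKM in N. None of these 3 or Rplp1 was called in any comparison, and for each the LMS range took in all of LMA. Rps6 was at 867 to 950.4 FPKM in LMA (median 933), 779.8 to 997 FPKM in LMS (median 956), 971, 965 and 947 FPKM in LM, and 1099.5, 881 and 948 FPKM in N. Rpl5 and Rpl11, which bind Mdm2 when ribosome assembly fails, were not called either. Rpl5 had 394 to 402 FPKM in LMA, 331 to 507 FPKM in LMS, 402, 415 and 396 FPKM in LM, and 457, 397 and 446 FPKM in N.

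Rps27l is a paralog of the small subunit protein Rps27 that p53 induces, and Rps27a encodes ubiquitin fused to a small subunit protein. Rps27l was at 66.0 to 76.9 FPKM in LMA (median 70.0), 27.9 to 116 FPKM in LMS (median 112), 69.7, 68.8 and 70.1 FPKM in LM, and 18.4, 30.2 and 114 FPKM in N. Its low values were those of LMS 2, LMS 5, N 1 and N 2, and its high values those of the other 4 LMS libraries and N 3, with LMA and LM between. Rps27 was at 604 to 688 FPKM in LMA (median 634), 646 to 1006 FPKM in LMS (median 796), 657, 763 and 665 FPKM in LM, and 1059.6, 1045 and 502 FPKM in N. Here the same 4 libraries were the highest, at 1002 to 1059.6 FPKM, and N 3 was the lowest. Rps27l made 8.76% to 11.3% of the FPKM of the pair in LMA, 2.70% to 15.2% in LMS, 8.26% to 9.60% in LM and 1.71% to 18.5% in N. Rps27a followed Rps27l, at 754 to 811 FPKM in LMA, 327 to 1017 FPKM in LMS, 767, 784 and 764 FPKM in LM, and 576, 481 and 922 FPKM in N.

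None of the 3 passed in any comparison over all 18 libraries, and for Rps27l the LMA minus LMS difference was −0.03 ± 0.44 (SE, limma adjusted p = 0.972). With LMS 2, LMS 5, N 1 and N 2 left out, Rps27l was lower in LMA than in LMS by a log2 difference of −0.69 ± 0.04 (limma adjusted p = 2.07e-09), and with only LMS 2 and LMS 5 kept in LMS it was higher by 1.31 ± 0.13 (adjusted p = 2.02e-06). Rps27 was lower in LMA in both sets, by −0.21 ± 0.06 (adjusted p = 0.00941) and −0.65 ± 0.06 (adjusted p = 2.00e-06). Both sets were chosen after seeing the data and cut along the split of Rps27l and Rps27 themselves, so these p-values are no test of the differences. The direction for Rps27 was the same in both sets, and that for Rps27l and Rps27a turned. The RefSeq promoter table (GRCm38.p6) gives different starts for Rps27 and Rps27l, shown because they are the pair that parted. Both windows run from 10 bases before the annotated start to 20 bases into the transcript, at chr3:90213629-90213658 (− strand) for Rps27 and chr9:66946076-66946105 (+ strand) for Rps27l, the first of the 2 starts listed for it, with the longest C-led pyrimidine tract within 5 bases of the start in capitals.
Rps27: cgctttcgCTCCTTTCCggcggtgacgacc
Rps27l: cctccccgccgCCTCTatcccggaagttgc
The tract is 9 bases long in Rps27 and 5 at this start of Rps27l, and the second listed start (chr9:66946403-66946432) has none.

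**Figure D5:**
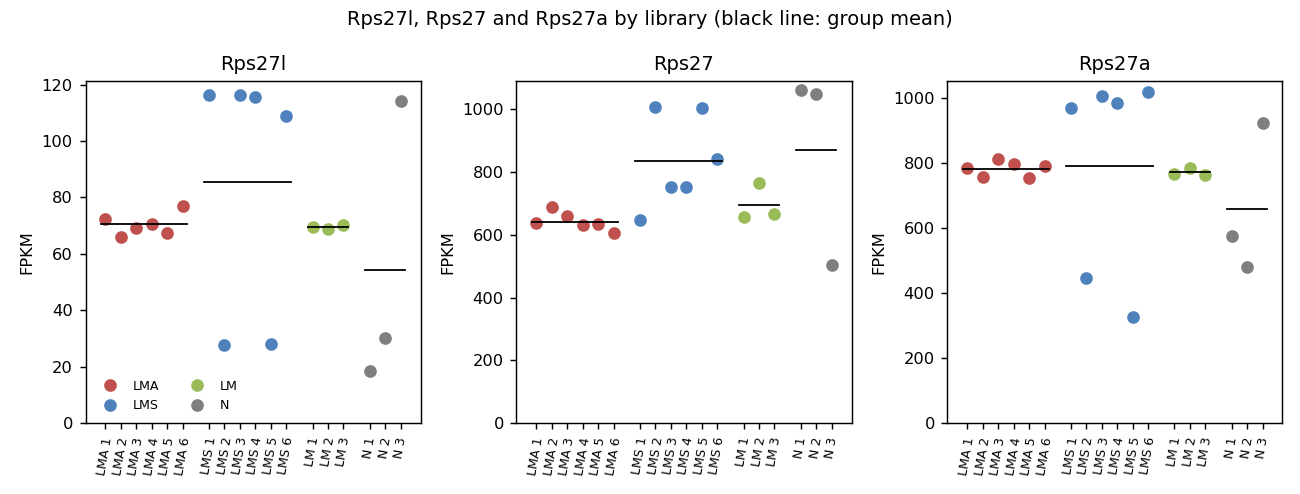
FPKM of Rps27l, Rps27 and Rps27a in each library (points coloured by group, black lines are group means; axes start at 0). Rps27l is lowest and Rps27 highest in LMS 2, LMS 5, N 1 and N 2, while LMA and LM lie close together for Rps27l and Rps27a.

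The other paralogs were called in no comparison over all 18 libraries. Rpl22l1, which stands in for Rpl22 and is repressed by it, was at 108 to 119.9 FPKM in LMA (median 113), 88.5 to 135 FPKM in LMS (median 121), 121, 129 and 114 FPKM in LM, and 86.6, 91.8 and 105 FPKM in N. Every LMA and LM library was above every N library, yet the log2 differences from N, 0.27 ± 0.12 for LMA and 0.36 ± 0.14 for LM, did not pass (limma adjusted p = 0.0833 and 0.0645). Rpl22 itself was at 299 to 348 FPKM in LMA, 219.8 to 413 FPKM in LMS, 350.0, 364 and 350.0 FPKM in LM, and 298, 251 and 376 FPKM in N. Rpl36al made 39.5% to 42.4% of the FPKM of Rpl36a and Rpl36al in LMA, 34.4% to 40.7% in LMS, 39.6% to 42.0% in LM and 32.1% to 40.5% in N. Rpl7l1, a paralog of Rpl7 with a role in ribosome assembly, was at 23.9 to 25.3 FPKM in LMA, 20.8 to 35.2 FPKM in LMS, 24.9, 24.0 and 25.2 FPKM in LM, and 22.6, 24.7 and 33.8 FPKM in N, high in the same 5 libraries as Rps27l. Rps27rt, a retrogene of Rps27, was at 51.4 to 64.2 FPKM in LMA, 62.6 to 77.6 FPKM in LMS, 60.9, 74.4 and 60.7 FPKM in LM, and 118 FPKM in N 1, 72.9 FPKM in N 2 and 52.2 FPKM in N 3.

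The genes around the ribosome were read from lists of fixed names. Of 18 translation genes outside the name rule whose mRNAs mostly carry the TOP motif, such as Fau and Rack1 (Gnb2l1 in these files), 1 was called, Eif3f, lower in LMA than in N by a log2 difference of −0.31 ± 0.11 (limma adjusted p = 0.0404). Ribosome assembly genes were called in a single direction in each comparison over all 18 libraries. Of 45, 18 were lower and 0 higher in LMA than in LMS (40.0%, beside 30.7% of all genes), with a median of −0.39 against −0.12, and 13 were higher and 0 lower in LMS than in LM (28.9%, beside 21.3%). 13 were lower and 0 higher in LMA than in N and 11 were lower and 0 higher in LM than in N, shares of 28.9% and 24.4% that lie near or under the 35.4% and 25.0% of all genes, and 0 were called between LMS and N or LMA and LM. The list was split inside LMS and N, with a summed FPKM of 969 to 994 in LMA, 1532 to 1560.3 in LMS 1, LMS 3, LMS 4 and LMS 6, 886 and 899 in LMS 2 and LMS 5, 975 to 1008.5 in LM, 1608 in N 3 and 978 and 947 in N 1 and N 2. Without N 1, N 2, LMS 2 and LMS 5, 42 were lower and 0 higher in LMA than in LMS, against 44.0% and 28.0% of all genes. With only LMS 2 and LMS 5 kept in LMS 11 were lower and 22 higher, against 42.2% and 36.6%, so the single direction did not hold. The lowest adjusted p was that of Imp4, a factor of small subunit assembly, with a log2 difference of −0.77 ± 0.05 in LMA against LMS (adjusted p = 1.48e-08), followed by Ubtf, the RNA polymerase I factor (−0.96 ± 0.11, adjusted p = 4.07e-06).

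Of 77 mitochondrial ribosomal protein genes, 4 were higher and 14 lower in LMA than in LMS, and the median was −0.05 against −0.12 over all genes. Of 29 initiation factor genes, 2 were higher and 5 lower in LMA than in LMS. Both lists turned with the LMS libraries kept. Without N 1, N 2, LMS 2 and LMS 5, 59 mitochondrial ribosomal protein and 19 initiation factor genes were lower and 5 and 4 higher. With only LMS 2 and LMS 5 in LMS, 6 and 7 were lower and 52 and 20 higher. Of all genes, 44.0% were lower and 28.0% higher in the first set, and 42.2% and 36.6% in the second. In a list of 16 genes that act on ribosomal protein mRNA, 2 were higher and 1 lower in LMA than in LMS: Eif4ebp1 by 1.28 ± 0.45, Tial1 by 0.45 ± 0.16 and Eif4ebp2 by −0.66 ± 0.22 (limma adjusted p = 0.0411, 0.0484 and 0.0313). Over all 18 libraries the shares called in these 3 lists, 23.4%, 24.1% and 18.8%, were all under the 30.7% of all genes. Eif4ebp1 and Eif4ebp2 both hold back cap-dependent initiation under mTOR. Myc, of the same list, was at 19.5 to 23.3 FPKM in LMA and 18.7 to 21.0 FPKM in LM, and in LMS and N it was at 2.66 to 4.04 and 1.24 FPKM in LMS 1, LMS 3, LMS 4, LMS 6 and N 3 and at 29.5 to 47.1 FPKM in the 4 libraries without Eif2s3y. The 13 mitochondrially encoded protein genes, which also report on RNA quality, had 12 lower and 0 higher in LMA than in LMS (92.3%, beside 30.7% of all genes), with a median of −0.79. Without N 1, N 2, LMS 2 and LMS 5, 13 were lower and 0 higher, and with only LMS 2 and LMS 5 in LMS, 9 were lower and 1 higher, beside the same shares of all genes as above.

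Promoters of the members shared letters that the name rule did not use. 57 of the 77 standard members had an entry in the promoter table, which runs from 250 bases before to 50 bases after the start, and motifs were searched on both strands. The ETS or GABP letters CCGGAAG were in 24 of the 57 (42.1%), against 9.93% of all 27025 genes in the table, and the pyrimidine stretch CTCTTTCC in 10 (17.5%), against 3.57%. The SP1 letters GGGCGG were in 35 (61.4%, against 38.2%), the YY1 letters AAGATGGC in 5 (8.77%, against 3.19%) and the TATA box letters TATAAA in 6 (10.5%, against 15.7%). A C followed by at least 4 pyrimidines within 5 bases of the start was found in 27 (47.4%, against 21.2%). A match is a description of the letters and not a site of binding.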

How the data were processed

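The submitters' processing notes name the mm10 build (GRCm38) and GATK 4.2, and the aligner and quantifier were not given in the sources used here. Per the labels these are bulk libraries of 18 samples; the protocol fields describe melanoma tumours, the study's methods describe splenocytes, and melanoma marker sums were at most 1.97 FPKM. The authors deposited, per gene and library, FPKM, which was used for all levels and tests, and mean coverage, used as an alternative after division by the coverage that 1 FPKM had in that library. TPM was not used. Loci assembled de novo were left out, and rows of a gene were summed. No read counts were used, and no counting interval is given. The ratio of coverage to FPKM put the depth at 5.21 to 7.92 gigabases per library.

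Tests used limma 3.58.1 in R 4.3.3 (lmFit, 4 groups, eBayes with trend) on log2(FPKM + 0.5) of the 11436 protein-coding genes averaging 0.5 FPKM or more, Benjamini-Hochberg adjusted over all of them, with a threshold of 0.05. Differences are on the log2(FPKM + 0.5) scale, which understates changes of low genes. 83 members were tested, and the 4 annotated pseudogenes were not. The fit was tested on simulated data. Gene types and transcripts came from GENCODE vM21, copies from BLAST+ 2.17.0 and promoters from RefSeq. 60 of 87 member positions equalled GENCODE. Tables and figures used Python 3.11.15, pandas 2.3.3 and matplotlib 3.10.9. Reads of near-identical copies and of overlapping or antisense genes cannot be told apart here.

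Members and lists were chosen with earlier results of these data known. Named members follow a rule: stalk proteins and Rpsa, ubiquitin fusions and partners, Rps6, Rpl5 and Rpl11, those next to the limit of 1 FPKM, paralog pairs, the 3 highest of each subunit, up to 3 called in each direction by difference, and the 3 largest and 3 smallest ranges. Genes named beyond it were chosen after their values were seen. A few genes that the rule names are not reported here. No library duplicated another: the closest pair differed with an SD of 0.20 on the log2 scale. Alternatives were other scalings, pseudocounts, filters, sample weights, a replicate block, single libraries and library sets left out, coverage, and copies summed.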

Additional observations from a re-analysis of the deposited data

Results flagged for a closer look

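In 4 of the 82 groups of 6 libraries checked over 41 values, 1 library lay apart from the other 5 by more than Dixon's 95% critical value of 0.625 allows, and chance flags about 1 group in 20. All 4 were in LMA. Rpl11 had 291 FPKM in LMA 1, against 160.0 to 181 FPKM in the other 5 LMA libraries. Rpl13 had 386 FPKM in LMA 3, against 288 to 302 FPKM. Rpl10 had 655 FPKM in LMA 2, against 701 to 727 FPKM, and Rpl28 had 345 FPKM in LMA 1, against 355 to 359.9 FPKM. On the deposited coverage, scaled to FPKM, these libraries lay inside the range of the others for all 4 genes. Rpl11 was 114 in LMA 1 and 113 to 119.0 in the other 5, Rpl13 was 202 in LMA 3 and 198 to 208 in the others, and Rpl10 was 296 in LMA 2 and 291 to 302 in the others. Rpl28 was 206 in LMA 1 and 203 to 214 in the others.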

How the results depend on the processing

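Counts of members called that moved by over 1.5 times are given by setting. For LMA against LMS (0 called), they were 1 with a pseudocount of 1, 2 with a filter at a mean of 2 FPKM, 2 with median of ratios scaling, 22 with quantile normalization, 61 with sample weights and 11 with the 2 groups alone. In the same order, 3528, 3149, 3371, 3331, 8327 and 4015 of all genes were called, out of 9776 with that filter and 11436 otherwise. For LMS against LM (0 called), they were 1 with median of ratios scaling, 4 with quantile normalization, 50 with sample weights and 1 with the 2 groups alone. All genes called were 2285, 2303, 7930 and 1957 of 11436. For LMA against LM (0 called), sample weights gave 1, beside 164 of all genes. For LMA against N (10 called), they were 3 with median of ratios scaling, 20 with quantile normalization, 2 without a filter, 17 with sample weights and 2 with the 2 groups alone. All genes called were 3922, 4092, 3938, 6956 and 3842, out of 18533 without a filter and 11436 otherwise. For LMS against N (0 called), sample weights gave 34, beside 6820 of all genes. For LM against N (0 called) median of ratios scaling gave 2, quantile normalization 8, rescaling without hemoglobin 1 and sample weights 14. All genes called there were 2661, 2831, 2814 and 6736 of 11436. Among alternatives chosen after seeing the data, coverage in place of FPKM gave 3 for LMA against LMS and 1 for LM against N, and summing with copies gave 3 and 1. With N 1, N 2, LMS 2 and LMS 5 left out, 63 members were called (LMA against LMS), 47 (LMS against LM), 34 (LMA against N), 15 (LMS against N) and 31 (LM against N), and without N 3, LMS 1, LMS 3, LMS 4 and LMS 6 they were 42, 42 and 40 for the first 3 and 34 for LM against N. Leaving out single libraries gave 0 to 2 for LMA against LMS, 3 to 31 for LMA against N, 0 to 17 for LMS against N, 0 to 21 for LM against N and 0 to 0 for LMA or LMS against LM. In the order of the first 4, all genes called were 3061 to 3458, 2654 to 7552, 0 to 3830 and 1774 to 6657 of 11436. They were 0 for LMA against LM and 1625 to 2420 for LMS against LM. A replicate block gave 0 for LMA against N and changed no other count past that limit, but 13 of 21 same-numbered pairs deviated together (r over 0.1; range −0.64 to 0.91), so the numbers were not taken to pair libraries. Called differences from N that changed sign were Rps21 (0.042 without N 1, N 2, LMS 2 and LMS 5) and Rps28 (−0.0080 on coverage). The cause of these changes was not tested. Sample weights give less weight to libraries far from their group, and their estimation stopped before it converged.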

Other observations

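Of the 87 members, 49 had their highest value in N 1, and summed with their copies 40 of the 77 standard members did. LMS 2 held the lowest value of 39 members, LMS 5 of 13 and N 3 of 12. The shares of all genes highest or lowest in these libraries were not computed. N 1 also had the lowest Mki67, a proliferation marker, at 5.18 FPKM, against 65.3 to 122 FPKM in the other 17 libraries, and the lowest Top2a, at 6.42 FPKM, against 49.5 to 101 FPKM.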
